A study of Homo sapiens with 9 samples.

Results

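Internal N6-methyladenosine (m6A) is placed on nascent mRNA by a nuclear writer complex and removed by demethylases. METTL3 carries the active site and pairs with METTL14, while WTAP, VIRMA, ZC3H13, CBLL1 and the RNA-binding proteins RBM15 and RBM15B hold the complex together and bring it to RNA. METTL16 is a separate writer that methylates the spliceosomal U6 RNA and hairpins of MAT2A mRNA, and ALKBH5 is a nuclear eraser. PCIF1 belongs to a parallel pathway: it methylates the first transcribed base, next to the mRNA cap, when that base is an adenosine, giving m6Am.

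These 10 genes, taken as a list named for internal m6A writing and removal, are described here among the 58336 rows of a precision run-on sequencing (PRO-seq) table. PRO-seq counts RNA that engaged polymerases are extending, so it reports transcription rather than the amount of mature mRNA or protein. The cells were MEL624, a human melanoma line, in 3 groups of 3 biological replicates: wild-type cells given a random guide RNA (control), and the PCIF1 knockout lines KO1 and KO2, each of which is a single clone. Drosophila cells had been added to every library as a spike-in, and all groups grew in the same medium.

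The deposited table holds 1 mean per group. The spread between replicates is therefore unknown, every difference below is one between means, and none was tested. All 10 genes were found by symbol, and all 10 passed the floor of 10 mean normalized counts that 17149 genes reached. Of the 7 melanocyte lineage markers, 2 passed that floor: MITF had 168.5 counts in control, 142.0 in KO1 and 259.2 in KO2, and PMEL had 48.4, 21.3 and 23.8, log2 ratios of -1.15 and -1.0, whereas TYR was listed at 0 in all groups and SOX10 at 0 in control and KO1. Among markers of other cell types, 0 of 5 immune, 2 of 6 fibroblast and 2 of 6 epithelial genes passed it, and KRT18 reached 842.1 counts in control. PCIF1 itself was transcribed in every group, with 239.5 normalized counts in control, 269.6 in KO1 and 239.3 in KO2, which does not check the labels because an edit of the coding sequence can leave transcription of the locus in place.

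The base at which a transcript starts decides whether PCIF1 can act on it, so the annotated starts of the 10 genes are shown before their values. A RefSeq start window (GRCh38.p14) was matched for 9 of the 10 genes, and 6 of them are printed for the contrast between adenosine and guanosine starts. Each line gives 40 bases before the annotated start and 10 from it, 5′ to 3′ on the gene's own strand, and the capital marks the first transcribed base.
METTL3 (chr14:21511331-21511380, minus strand): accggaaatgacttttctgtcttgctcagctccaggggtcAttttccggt
METTL14 (chr4:118685352-118685401, plus strand): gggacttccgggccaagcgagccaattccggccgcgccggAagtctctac
METTL16 (chr17:2511879-2511928, minus strand): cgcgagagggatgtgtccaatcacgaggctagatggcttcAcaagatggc
RBM15 (chr1:110339337-110339386, plus strand): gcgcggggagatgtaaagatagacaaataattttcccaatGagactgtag
RBM15B (chr3:51391245-51391294, plus strand): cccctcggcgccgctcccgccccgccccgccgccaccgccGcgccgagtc
ALKBH5 (chr17:18183788-18183837, plus strand): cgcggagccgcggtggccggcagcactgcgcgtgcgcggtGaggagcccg

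The annotated start was A in 5 genes (METTL3, METTL14, METTL16, ZC3H13 and CBLL1), G in 3 (RBM15, RBM15B and ALKBH5) and C in both annotated starts of WTAP. Among 15045 start windows of compared protein-coding genes, 46.9% began with A, 39.5% with G and 11.9% with C. Annotation does not settle which base is used: GENCODE lists METTL3 with 2 protein-coding transcripts, of which 1 begins with A and 1 with C, and RBM15 with 9, of which 2 begin with A and 6 with G. CBLL1 has 5, of which 3 begin with G and 2 with A, against its RefSeq start, and WTAP has 5, of which 2 begin with G and 1 each with A, C and T. RBM15B has 1 and ALKBH5 has 2, all beginning with G. Which starts these cells use was not analysed here.

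The full windows, 250 bases before the start and 50 after it, were searched on both strands for 4 short motifs. CCGGAA, the core bound by ETS factors, was present in 5 of the 9 genes, with 3 matches each for METTL3 and METTL14, 2 for ZC3H13 and 1 each for METTL16 and CBLL1, against 26.6% of the windows of compared protein-coding genes. These are the 5 genes with an A at the RefSeq start, a label that the transcripts above leave uncertain. The box CCAAT was present in 7 of 9 (35.2% of windows) and the GC box GGGCGG in 5 of 9 (65.4%). Members were counted per gene, over both windows for WTAP, whereas the shares are per window. WTAP had CCAAT in 1 of its windows only. The letters of the TATA box, TATAAA, were found for METTL3 alone among the 9 (6.4%), and not within the stretch printed for that gene above. GC content over 300 bases ran from 52.0% for ZC3H13, 52.7% for RBM15 and 53.0% for METTL3 to 71.0% for ALKBH5, 70.3% and 73.3% for the WTAP starts and 74.3% for RBM15B, with a median of 64.7% over those windows.

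Levels of different genes were compared per kb of exon. In control cells they spanned from 22.47 normalized counts per kb for ZC3H13 to 160.86 for RBM15B. The order from high to low was RBM15B, RBM15, METTL3, CBLL1, ALKBH5, WTAP, METTL16, METTL14, VIRMA and ZC3H13. KO2 had the same order, and in KO1 the order differed at 1 place, where VIRMA (25.96 per kb) stood above METTL14 (24.29). METTL14 and VIRMA were 26.29 and 25.85 per kb in control, so their order is not resolved. Whether the other neighbours in the order differ beyond replicate spread cannot be judged from means.

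**Figure D1:**
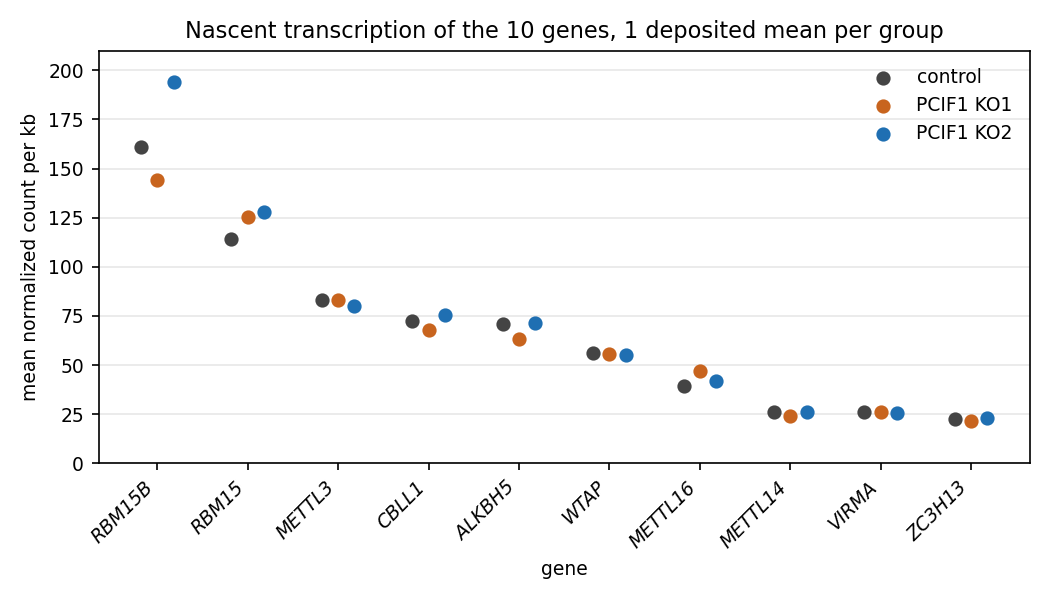
Mean normalized count per kb of exon (vertical axis, linear, from 0) for the 10 genes, ordered by their control level, with 1 point for each of control, PCIF1 KO1 and PCIF1 KO2 and no error bars because the table holds 1 mean per group. RBM15B lies highest in every group, from 144.15 to 194.22, and METTL14, VIRMA and ZC3H13 all lie between 21.48 and 26.29.

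The levels per kb of the writer subunits differed several-fold, on a scale that depends on the exons counted: the 4 genes of highest level, RBM15B, RBM15, METTL3 and CBLL1, are also the 4 whose exons make up most of the gene span (100%, 57.1%, 44.4% and 29.3%), and the order was not tested on another length. METTL3, the catalytic subunit (ENSG00000165819; chromosome 14, 21498133 to 21511342, minus strand), had 83.00, 83.24 and 79.85 normalized counts per kb in control, KO1 and KO2. METTL14, its RNA-binding partner (ENSG00000145388; chromosome 4, 118685392 to 118715433, plus strand), had 26.29, 24.29 and 26.19. The ratio of METTL3 to METTL14 per kb was 3.16 in control, 3.43 in KO1 and 3.05 in KO2. A ratio of this kind does not depend on how the groups were scaled to each other; exons make up 22.8% of the METTL14 span. Of 12525 compared protein-coding genes, 86.3% had a control level per kb below that of METTL3, and 45.9% below that of METTL14.

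In counts per gene, METTL3 had 489.2 in control, 490.6 in KO1 and 470.6 in KO2, log2 ratios to control of 0.00 and -0.06. Here and below a log2 ratio was taken after adding 1 to each count. METTL14 had 180.4, 166.7 and 179.7 counts, log2 ratios of -0.11 and -0.01. Both catalytic-core genes lay close to control in each clone, with the widest gap for METTL14 in KO1.

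The scaffold and adaptor genes WTAP and VIRMA showed the smallest differences of the set when both clones are considered, although METTL3 was closer to control in KO1, and METTL14 and ALKBH5 closer than WTAP in KO2. WTAP, which ties the catalytic pair to the rest of the complex (ENSG00000146457; chromosome 6, 159725585 to 159756319, plus strand), had 326.4, 324.7 and 321.3 counts, log2 ratios of -0.01 and -0.02. VIRMA, the large scaffold subunit (ENSG00000164944; chromosome 8, 94487689 to 94553529, minus strand), had 278.4, 279.6 and 277.4 counts, log2 ratios of 0.01 and -0.01. ZC3H13, which helps keep the complex in the nucleus (ENSG00000123200; chromosome 13, 45954465 to 46052759, minus strand), had 230.7, 220.5 and 237.8, log2 ratios of -0.06 and 0.04. With METTL3, these were the 4 genes within 5% of control in both clones. The ratio of METTL3 to WTAP per kb was 1.48, 1.49 and 1.45, and that of METTL3 to VIRMA 3.21, 3.21 and 3.10.

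CBLL1 encodes HAKAI, a RING finger subunit of the complex that is also known as a ubiquitin ligase (ENSG00000105879; chromosome 7, 107743073 to 107761667, plus strand). It had 396.1 counts in control, 372.3 in KO1 and 413.6 in KO2, log2 ratios of -0.09 and 0.06. The clones lay on either side of control.

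RBM15 and RBM15B encode related RNA-binding subunits, and their transcription differed in pattern. RBM15 (ENSG00000162775; chromosome 1, 110338506 to 110346681, plus strand) had 534.3 counts in control, 584.3 in KO1 and 596.5 in KO2. It was above control in both clones, with log2 ratios of 0.13 and 0.16, and the clones differed by 0.03. RBM15B (ENSG00000259956; chromosome 3, 51391285 to 51397908, plus strand) had 1068.3, 957.3 and 1289.8 counts, log2 ratios of -0.16 in KO1 and 0.27 in KO2. KO2 was 1.35-fold above KO1, a log2 difference of 0.43 and the largest between any 2 groups for the 10 genes. The ratio of RBM15B to RBM15 per kb went from 1.41 in control to 1.15 in KO1 and 1.52 in KO2. RBM15B is a gene whose exons fill 100% of its span, so reads across the whole transcription unit can enter its count, whereas those of the other members cover from 8.4% (METTL16) to 57.1% (RBM15) of theirs.

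METTL16 (ENSG00000127804; chromosome 17, 2405562 to 2511891, minus strand) had 349.1 counts in control, 420.3 in KO1 and 372.8 in KO2, log2 ratios of 0.27 and 0.09. Of the 10 genes it stood farthest above control in KO1, at 1.2-fold, with KO2 between the other two groups. Of 4824 compared genes with a mean count within 2-fold of that of METTL16, 23.8% were at least as far from control in KO1, and 75.1% in KO2. MAT2A, the S-adenosylmethionine synthetase gene whose mRNA METTL16 methylates, is named here for that link; it had 3965.8, 3714.8 and 3700.9 counts, log2 ratios of -0.09 and -0.10. METTL16 was above control in both clones and MAT2A below it in both; the relation between them was not tested.

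ALKBH5, the eraser (ENSG00000091542; chromosome 17, 18183078 to 18209954, plus strand), had 226.5, 201.0 and 228.0 counts. Its log2 ratio was -0.17 in KO1, where it was the lowest of the 10 genes, and 0.01 in KO2. Of 6814 genes of like count, 45.8% were at least as far from control in KO1. The ratio of METTL3 to ALKBH5 per kb was 1.17 in control, 1.32 in KO1 and 1.12 in KO2. FTO, the other demethylase, named for its role, had 141.7, 133.0 and 144.7 counts, log2 ratios of -0.09 and 0.03, with the same order of the 3 groups as ALKBH5. RBM15B, CBLL1 and ZC3H13 had that order too. For ALKBH5 it is not firm, since its ratio in KO2 was -0.03 after quantile normalization.

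Taken as a list, the 10 genes lay close to control. None was at least 25% above or at least 20% below control in KO1 or in KO2 (a log2 ratio of the same size either way), where 30.3% and 40.6% of all 17149 compared genes were. The members have high counts, from 175.6 to 1105.1 on average, and genes of high count are off less often: among the 5612 compared genes in that range the shares were 17.0% and 28.9%, which would put 1.7 and 2.9 of 10 genes there on average. The plan set 1.5-fold for calling a gene, and this looser line was added to it. It lies just above the farthest members, METTL16 at 1.2-fold in KO1 and RBM15B at 1.21-fold in KO2. The count of 0 therefore depends on where the line was put. At 1.5-fold the members' count was also 0 of 10 in both clones, against 11.9% and 17.0% of all compared genes and 3.99% and 7.64% of those in the count range, so that the stricter criterion says little about a list of this size. Their median log2 ratio was -0.04 in KO1, with 4 above and 6 below control, and 0.03 in KO2, with 6 above and 4 below. Over all compared genes both medians were 0.00. The 2 comparisons share their control and are not independent.

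**Figure D2:**
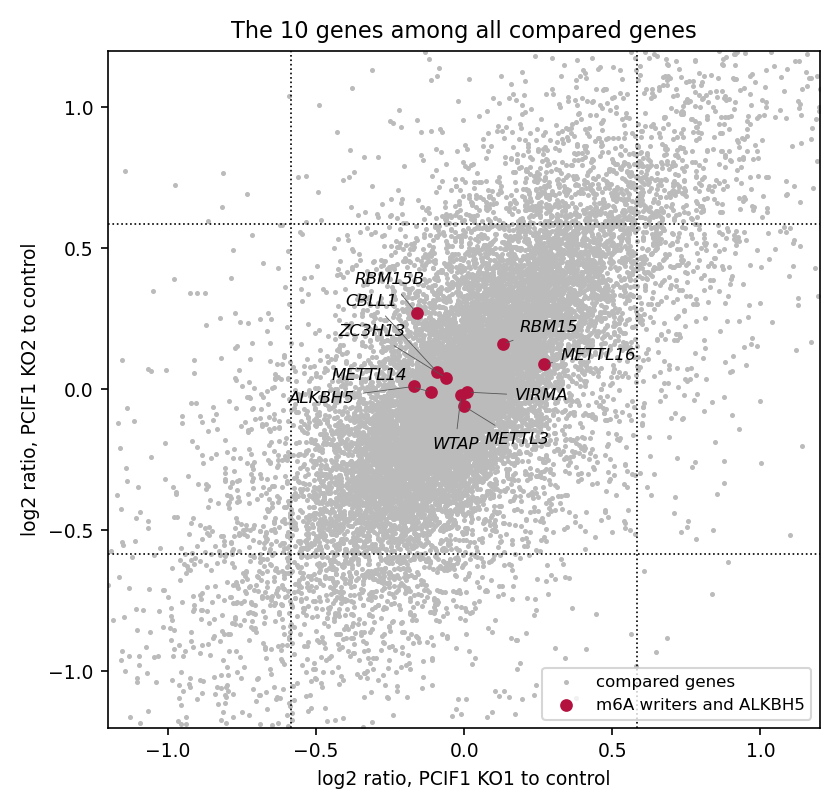
Log2 ratio to control in PCIF1 KO1 (horizontal axis) and PCIF1 KO2 (vertical axis) for compared genes (grey, drawn where both ratios are within 1.2) and for the 10 genes (red, labelled), with dotted lines at 1.5-fold. The 10 genes run from -0.17 to 0.27 in KO1 and from -0.06 to 0.27 in KO2, all inside the dotted square, and the axes share the control mean.

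Set against each other, the same criterion took 1 of the 10 genes, RBM15B, and 24.0% of all compared genes and 11.1% of those in the count range. Of 1087 compared genes with a mean count within 2-fold of that of RBM15B, 5.2% differed at least as much between the clones. The next largest differences were 0.18 for ALKBH5, -0.17 for METTL16 and 0.15 for CBLL1, and those of WTAP and VIRMA were -0.02 and -0.01. Summed over the 10 genes, the level per kb was 671.2 in control, 657.9 in KO1 and 720.7 in KO2, and without RBM15B it was 510.4, 513.8 and 526.5. The spread between clones in the sum came mainly from RBM15B, the gene of highest level.

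RBM15B lies on the short arm of chromosome 3 in a stretch of genes that was higher in KO2 as a whole. Each of the 20 nearest compared genes, 10 on either side, was higher in KO2 than in KO1, with log2 differences from 0.26 to 0.83 and a median of 0.43, the value of RBM15B itself. Against control, the neighbours' medians were -0.13 in KO1 and 0.34 in KO2, beside -0.16 and 0.27 for RBM15B, and 17 of 20 were above control in KO2 against 6 of 20 in KO1. Within 5 Mb on either side, 149 of 158 compared genes were higher in KO2 than in KO1, with a median of 0.39. Among them, MANF, a gene for a secreted endoplasmic reticulum protein that ends just before RBM15B, had 240.3, 180.8 and 227.8 counts. DCAF1, a substrate receptor of a ubiquitin ligase that runs toward RBM15B on the other strand, had 311.4, 297.6 and 366.2.

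**Figure D3:**
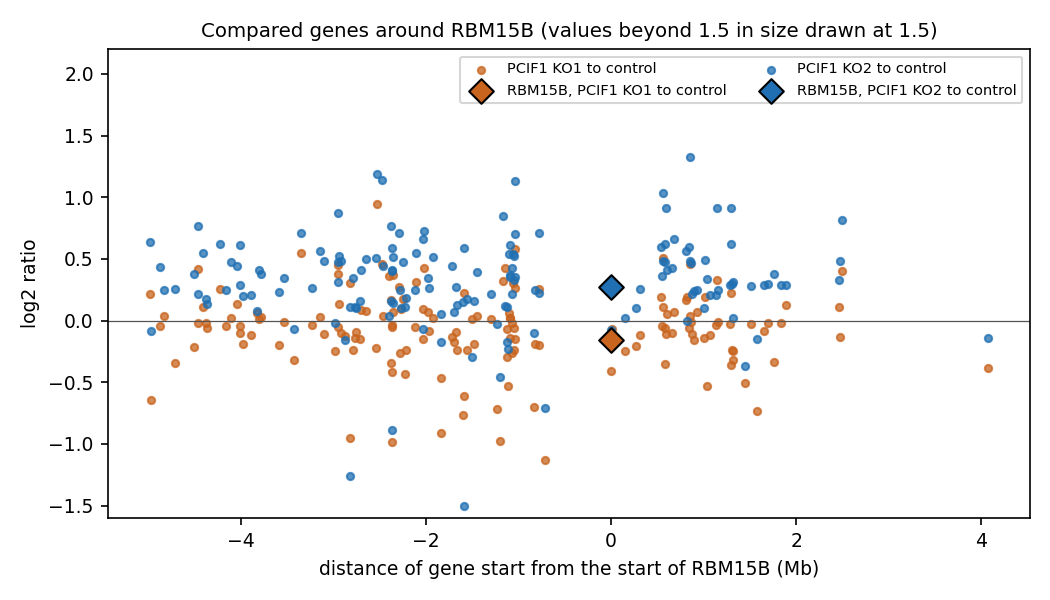
Log2 ratio to control (vertical axis, values beyond 1.5 in size drawn at 1.5) of the 158 compared genes that start within 5 Mb of RBM15B, by distance of their start from that of RBM15B in Mb, for PCIF1 KO1 (orange) and PCIF1 KO2 (blue), with RBM15B as outlined diamonds. The KO2 points centre on a median of 0.31 and the KO1 points on -0.05, and both RBM15B diamonds lie inside the cloud of their own clone.

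The other 9 genes lie on 8 chromosomes and their neighbours did not share a shift of that size between the clones: the median log2 difference of KO2 to KO1 over 20 neighbours ran from -0.10 (WTAP) to 0.09 (RBM15). METTL16 stood apart from its surroundings in KO1, being higher than 19 of its 20 neighbours, whose median was -0.08; in KO2 it was higher than 14 of 20 with a median of -0.09. RBM15 was higher than 15 of its 20 neighbours in each clone, with neighbour medians of -0.02 and -0.01. ALKBH5 was -0.17 in KO1 beside a neighbour median of -0.13, and 0.01 in KO2 beside -0.18, where it was higher than 16 of 20. Nearby genes differ in count and so in precision, and these positions are descriptions of 3 means.

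**Figure D4:**
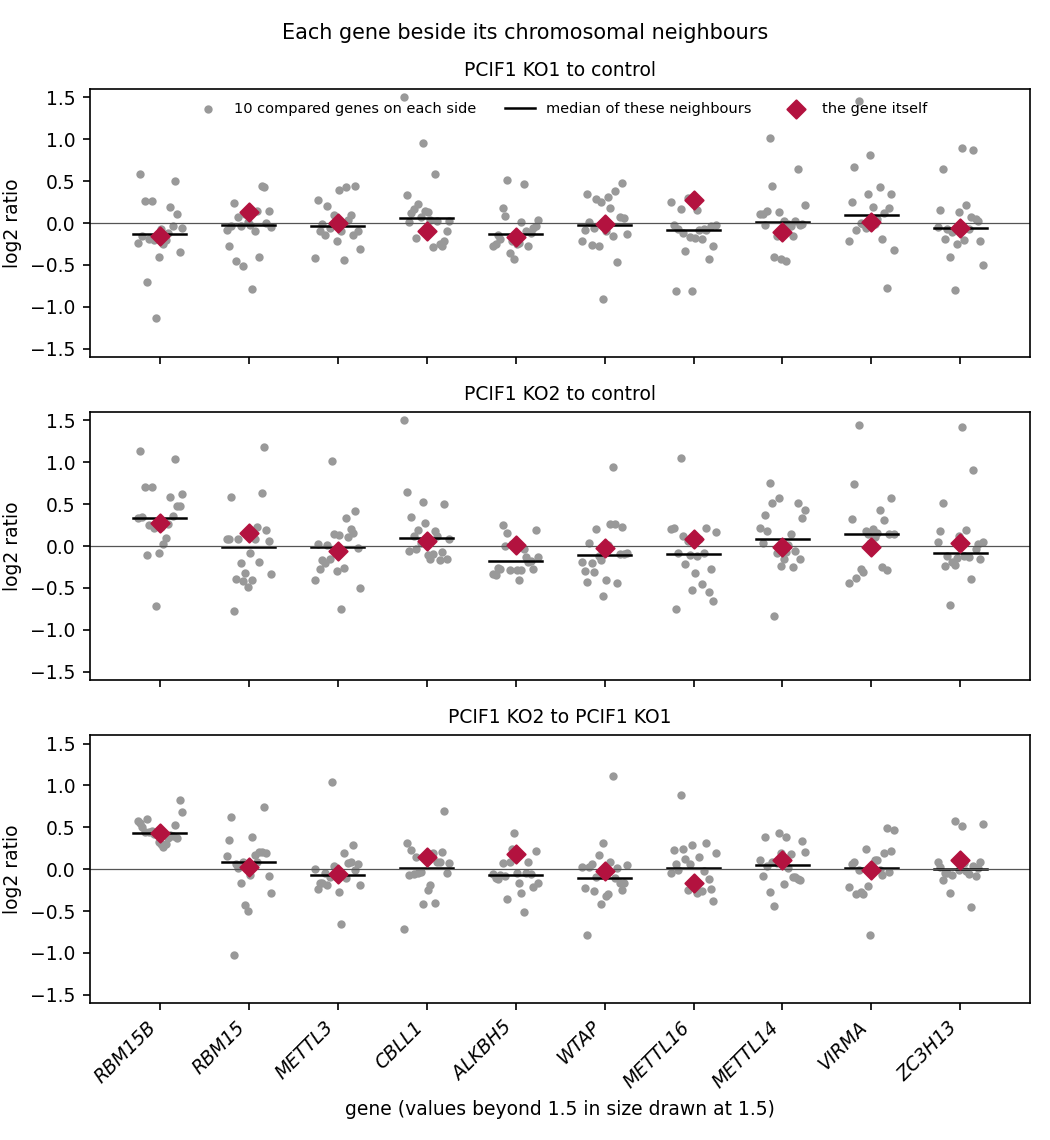
Log2 ratio (vertical axis, values beyond 1.5 in size drawn at 1.5) of each of the 10 genes (red diamonds), of the 10 compared genes on each side of it along the chromosome (grey points) and of their median (black line), for PCIF1 KO1 to control, PCIF1 KO2 to control and KO2 to KO1. In the lowest panel all 20 neighbours of RBM15B lie above 0, between 0.26 and 0.83, and RBM15B lies on their median.

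The 3 protein-coding genes whose pair of ratios to control was closest to that of RBM15B, the member with the largest ratio, were SYNCRIP on chromosome 6 (1004.8, 897.7 and 1219.9 counts), HIF1AN on chromosome 10 (698.8, 638.2 and 848.4) and HEMK1 on chromosome 3 (660.8, 579.1 and 786.5). Likeness was measured as Euclidean distance in the 2 ratios over 1000 candidates of like count, and it was 0.009, 0.029 and 0.038. HEMK1 is one of the 20 neighbours of RBM15B. With 3 group means such closeness is easily reached.

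Genes that overlap a member may share its reads, since the strand setting of the counting is not given in the sources used here. Overlaps were taken over whole gene spans, so whether counted exons overlap was not analysed. Genes that start within 1 kb are given too, of which METTL14-DT and VIRMA-DT do not overlap their member. METTL3 and TOX4 overlap tail to tail by 1043 bases, and TOX4 had 125.2, 107.6 and 101.3 counts. RBM15B and DCAF1 overlap by 2042 bases. WTAP lies within the annotated span of SOD2, whose release 44 identifier has no row in the table. METTL14-DT, which starts 49 bases from METTL14 on the other strand, had 30.4, 22.3 and 25.5 counts, log2 ratios of -0.43 and -0.24, and VIRMA-DT, 139 bases from VIRMA, had 43.5, 49.7 and 50.5, log2 ratios of 0.19 and 0.21. CBLL1-AS1 had 141.3, 156.2 and 172.1 counts and RBM15-AS1 had 38.5, 38.7 and 27.1. CPB2-AS1, which starts 262 bases inside ZC3H13 on the other strand, had 7.6, 15.0 and 22.0 counts, log2 ratios of 0.90 and 1.42 with few counts behind them, while ZC3H13 itself was within 5% of control.

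The wider pathway was described by 4 further lists. Of 6 other m6A and m6Am enzymes, 1 was at least 1.5-fold off control: METTL4, a methyltransferase of U2 small nuclear RNA, with 347.0 counts in control, 228.2 in KO1 and 220.6 in KO2, log2 ratios of -0.60 and -0.65. The medians of its 20 chromosomal neighbours were -0.57 and -0.73, with 1 of 20 above control in each clone. METTL5, the 18S ribosomal RNA writer, had 74.7, 64.7 and 55.6 counts, and its partner gene TRMT112 170.9, 133.2 and 163.0. The median of this list was -0.15 in KO1 and -0.03 in KO2. Of 13 m6A reader genes, 0 were 1.5-fold off in either clone, with medians of -0.01 and -0.06. IGF2BP1, which encodes an mRNA-stabilizing reader, had 632.4, 486.9 and 513.7 counts, its relative IGF2BP3 589.0, 724.5 and 628.5, and ELAVL1, the gene of the RNA-binding protein HuR, 304.3, 235.7 and 244.4. IGF2BP1 and ELAVL1 were below control in both clones, and so were the readers PRRC2A, YTHDF1, YTHDC1, HNRNPA2B1 and HNRNPC. Over the 13 readers, 6 were above and 7 below control in KO1, and 5 above and 8 below in KO2.

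Of 8 further dioxygenase genes of the AlkB family, to which ALKBH5 belongs, 0 were 1.5-fold off, with medians of -0.08 and -0.09. ALKBH2, a DNA repair enzyme, had 184.0, 174.7 and 247.1 counts, ALKBH3, which repairs alkylated nucleic acid, 91.5, 89.6 and 71.0, and ALKBH6 40.2, 28.2 and 32.5. Of 5 genes listed for S-adenosylmethionine supply or removal of its product, 0 were 1.5-fold off, with medians of 0.05 and 0.13. AHCYL1 and AHCYL2 are in that list as relatives of AHCY by name, and the activity of AHCY is not claimed for them. AHCYL2 had 51.3, 64.3 and 68.9 counts, MAT2B, the regulatory subunit gene of the synthetase, 240.0, 240.2 and 276.1, and AHCY, which hydrolyses S-adenosylhomocysteine, 348.7, 360.3 and 381.5. At the looser line applied to the members, 2 of 13 readers were past it in KO1, below control, and 0 in KO2. Of the 6 other enzymes, 2 were past it in each clone, below control. Of the 8 AlkB genes, 1 was past it below control in KO1, and in KO2 1 above and 2 below. Of the 5 S-adenosylmethionine genes, 0 were past it in KO1 and 1 in KO2, above control. A count of 0 in a single clone was therefore not particular to the members, since readers had it in KO2 and the S-adenosylmethionine genes in KO1. Of these lists, the members alone had 0 in both clones. The background at 1.5-fold is the share given above, 11.9% in KO1 and 17.0% in KO2. At the looser line it is 30.3% and 40.6% of all compared genes, and 17.0% and 28.9% of those in the members' count range. Lists of 5 to 13 genes are too short to be read against the background or each other.

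**Figure D5:**
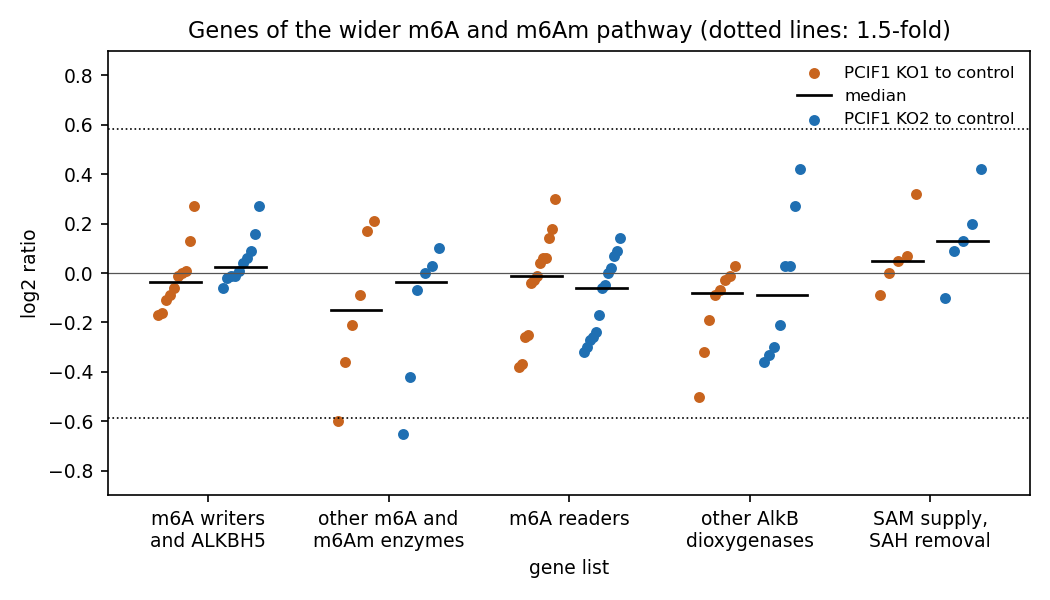
Log2 ratio to control (vertical axis) of each gene in 5 lists (horizontal axis) for PCIF1 KO1 (orange) and PCIF1 KO2 (blue), with black lines for medians and dotted lines at 1.5-fold. Every point lies between -0.65 and 0.42, and METTL4 alone is beyond a dotted line, in both clones.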

How the data were processed

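PRO-seq was carried out on 9 libraries, 3 per group; per the labels' design, 1000000 cells and 40000 Drosophila S2 cells went into each, read as pairs of 42 nt to an average of 50000000 mappable reads. The table gives no depth per library, so no interval is given. Per the file headers, each deposited value is a signal: the mean of normalized counts over a group's replicates, divided by gene length in kb by the authors. What the counts were scaled to, and whether the spike-in entered, is not given in the sources used here. Tools listed in the submitters' processing notes are DESeq2, featureCounts, Bowtie 1.2.2 and cutadapt 1.14, and listed builds are GRCh38.p12, hg38 and dm3, without their roles. The header has 6 names over rows of 5 cells; the gene symbol cell was taken to be missing, since the cell after the identifier equals the GENCODE release 44 exon length for 64.4% of the matched rows. For the 10 genes that length was within 1% of release 44 for 8, and at 90.9% for WTAP and 88.6% for ALKBH5. Symbols were matched for 57754 of 58336 rows, and positions are those of release 44 (GRCh38).

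Values were multiplied by length to give counts per gene, and log2 ratios were taken with a pseudocount of 1 among genes with a mean of at least 10. With 1 mean per group no test was made. Genes are counted as off control at 1.5-fold, as planned, or at 25% above or 20% below it, a looser line that was added. Summed counts were 3760730 in control, 3759168 in KO1 and 3823178 in KO2, and how far the scaling sets these sums is not known. The calculation of ratios was tested on simulated data, with counting noise around the control means and known folds in KO1. That checked the arithmetic of the ratios only. The rule for named genes took all 10 members, the 3 largest ratios of each further list and any gene 1.5-fold off in both clones, the 3 genes most like the member of largest ratio, and the adjoining neighbours of a member at least 25% above or 20% below another group; PCIF1, MAT2A, FTO, overlapping genes and markers are named for their role. The members and lists were chosen with earlier results of these data known. Alternatives were other pseudocounts, floors, rescalings and the scale per kb. Python 3.11.15, numpy 2.4.6, pandas 2.3.3 and matplotlib 3.10.9 were used.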

Additional observations from a re-analysis of the deposited data

How the results depend on the processing

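The 7 alternatives (pseudocounts of 0.5 and 5, no floor, a floor of 50, median-of-ratios rescaling, quantile normalization, values per kb) moved no log2 ratio of the 10 genes by more than 0.04, and 0 of 10 were at least 25% above or 20% below control in either clone under each of them, with RBM15B alone past that between the clones. Before rounding, the sign differed from the reported one in 6 of 210 such values, all of ratios of at most 0.01 in size as reported (WTAP and VIRMA in KO1, METTL14, VIRMA and ALKBH5 in KO2, and VIRMA between the clones), and all under the rescalings. The ratio of RBM15B between the clones ran from 0.43 to 0.45, and that of METTL16 in KO1 from 0.26 to 0.28. The background counts followed the floor, which sets how many low genes are compared. With no floor, 17019 genes (KO1), 18985 (KO2) and 15658 (KO2 against KO1) of 34803 were at least 25% above or 20% below and 7927, 9096 and 6896 at least 1.5-fold off, against 5200, 6959 and 4114, and 2035, 2913 and 1401, as reported. With a floor of 50 these were 2669, 3962 and 1827 of 11917, and 773, 1287 and 434. No paired analysis was possible because the table holds 1 mean per group, and leaving out single replicates was not run for the same reason. A change common to all genes would be invisible if the authors' scaling removed it.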
